A study of Mus musculus with 7 samples.

Results

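The genes described here are 10 that mark the erythroid branch of blood formation: the priming genes Klf1, Epor, Car1, Car2, Ermap and Tfrc, and the adult globin genes Hba-a1, Hba-a2, Hbb-bs and Hbb-bt. They were chosen by symbol, and all 10 were found among the 39179 gene rows of the table. Expression was measured by bulk RNA-seq in LSK cells, the bone marrow fraction without lineage markers and with Sca-1 and Kit on its surface, which holds stem cells and multipotent progenitors. All mice were of strain C57/BL6 as the labels spell it and aged 7 weeks, and all carried Vav1Cre, a Cre recombinase that acts throughout blood cells. The 3 Jmjd1c libraries came from mice that were also Jmjd1c f/f, with both copies of the histone demethylase family gene Jmjd1c floxed, and the 4 control libraries from mice with Vav1Cre alone. Whether each library was a separate animal is not given, so p-values cover no more than the spread among the 7 libraries, part of which may be technical.

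Red cells arise from multipotent progenitors that first turn on erythroid regulators and receptors at a low level, a state called priming, and only later fill with globin. KLF1 is a zinc finger factor that binds CACCC boxes and switches on adult beta-globin and many other red cell genes, usually together with GATA1. The Epo receptor carries the erythropoietin signal through JAK2 and STAT5, the transferrin receptor brings in iron for heme, and alpha- and beta-globin chains pair to form haemoglobin.

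The labels and the cell type were checked first. Jmjd1c itself was lower in the Jmjd1c libraries, at 264 ± 26.3 normalized read counts (SD, n = 3) against 488 ± 30.4 (SD, n = 4), a log2 difference of -0.89 ± 0.09 (limma, adjusted p = 0.00407; exact two-sided permutation p = 0.0286, the smallest that 35 arrangements allow). A normalized read count is the number of reads of a gene divided by the size factor of its library, and 1 read was worth 0.8 to 1.21 of these units. The libraries held 4303712 to 6436519 reads in genes. Kit (4778 to 7268 normalized read counts) and Ly6a, which encodes Sca-1 (694 to 915), were present in every library. None of the 14 LSK marker genes passed the test (limma), and 3 had an unadjusted p under 0.05, as 19.7% of all tested genes did. Markers of other cell types were present too: the 15 macrophage markers summed to 12821 in control 4, whereas the other controls held 3501 to 4962 and the Jmjd1c group 3253 to 5320. The 11 plasma and B cell markers summed to 18627 to 28657 in controls and 9634 to 29531 in Jmjd1c libraries. The 10 neutrophil markers summed to 9957 to 13392 in controls and 6910 to 9928 in Jmjd1c libraries.

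None of the 10 genes passed the test between the groups (limma-trend, adjusted p under 0.05 over all tested genes), where 1.8% of the 12813 tested genes did, 1.51% higher and 0.289% lower. All 10 were tested, and 2 of them, Klf1 and Ermap, had an unadjusted p under 0.05, as 19.7% of tested genes did. In none of the 10 were the groups separate, which they were in 16.8% of tested genes. edgeR on recovered reads also called none of the 10 and 1.82% of all genes, and DESeq2 called Klf1 alone (adjusted p = 0.0171) and 4.6% of all genes. The log2 difference was above 0 for 3 genes and below 0 for 7, with a median of -0.17 against -0.01 over all tested genes. These counts do not show that the levels were alike, and the signs are not independent. The adult globin genes, all among the 7, share sequence within each pair. One of them, Hba-a2, passed the filter on low values only through control libraries.

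**Figure D1:**
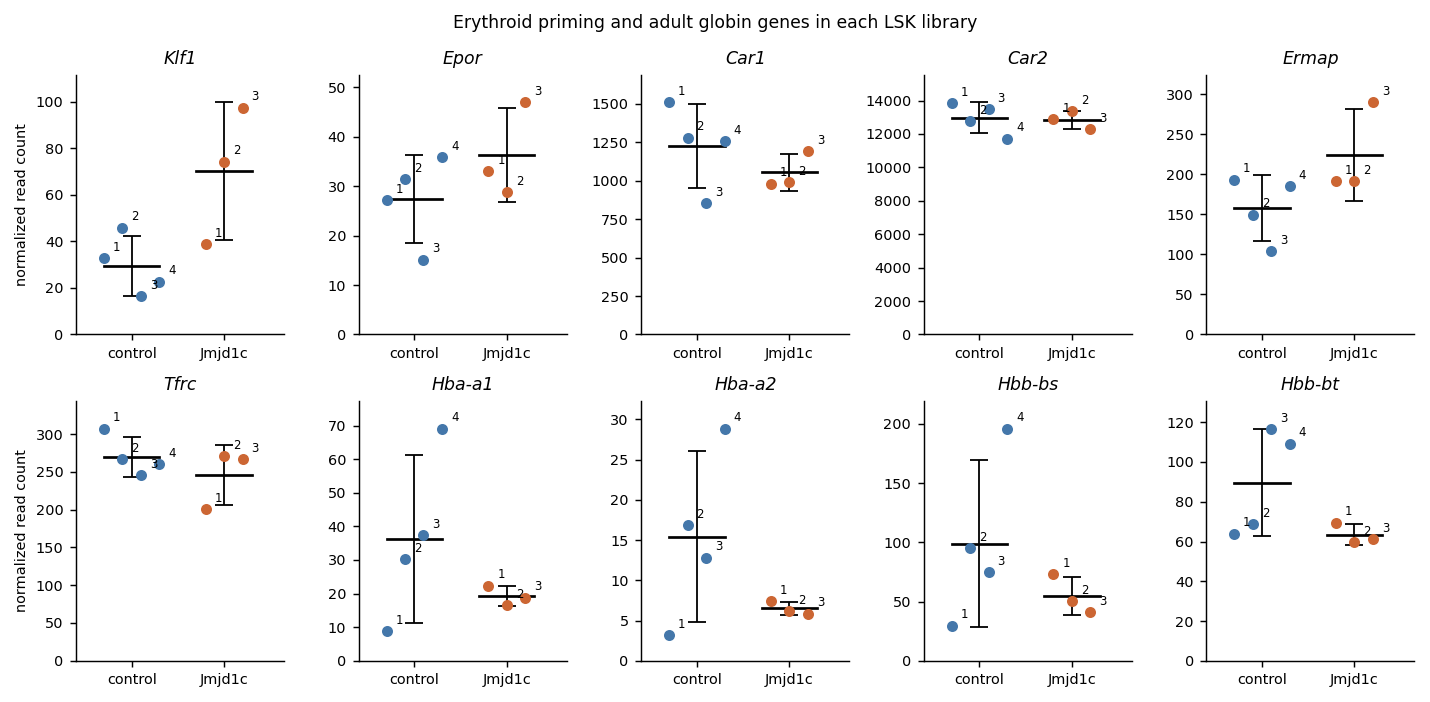
Normalized read count (vertical axis, from 0) of each of the 10 genes in the 4 control (blue) and 3 Jmjd1c (orange) libraries, 1 point per library with its replicate number; the long bar is the group mean and the whisker 1 SD. Klf1, Epor and Ermap are highest in Jmjd1c 3 (97.5, 47.0 and 290.0), and Hba-a1, Hba-a2 and Hbb-bs are highest in control 4 (69.1, 28.9 and 196).

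Klf1 (ENSMUSG00000054191; mm10 chromosome 8, 84901928 to 84905291, plus strand) had the largest difference of the 10. It was at 32.8, 45.9, 16.3 and 22.7 normalized read counts in controls 1 to 4 and at 38.9, 74.2 and 97.5 in Jmjd1c 1 to 3. Jmjd1c 2 and 3 lay above all controls, and Jmjd1c 1 lay below control 2, so the groups overlapped. The means were 29.4 ± 12.9 (SD, n = 4) and 70.2 ± 29.5 (SD, n = 3), from 119 and 202 reads in all. The log2 difference of 1.23 ± 0.36 (95% interval 0.43 to 2.03) was not called (limma, adjusted p = 0.102 over all tested genes). It was 1.60 without Jmjd1c 1, where it passed (limma, adjusted p = 0.0324), and 0.95 without Jmjd1c 3, where it did not (adjusted p = 0.324); over the 18 alternatives in which it was tested the adjusted p ran from 0.0171 to 0.344. The transcript is rich in GC, at 61.1% against a median of 49.4% over tested genes, and once GC content and transcript length were corrected for, the log2 difference was 1.01 (limma, adjusted p = 0.173).

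Epor (ENSMUSG00000006235; mm10 chromosome 9, 21958897 to 21963506, minus strand), the receptor for erythropoietin, was at 27.2, 31.4, 15.2 and 35.9 normalized read counts in controls 1 to 4 and at 33.1, 28.9 and 47.0 in Jmjd1c 1 to 3. Jmjd1c 3 lay above the control range, controls 1 and 3 lay below the Jmjd1c range, and the other libraries overlapped. The log2 difference was 0.43 ± 0.30 (95% interval -0.23 to 1.09; limma, adjusted p = 0.452), and it was 0.18 without control 3 and 0.23 without Jmjd1c 3. These are the values of 13 to 41 reads per library.

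Ermap (ENSMUSG00000028644; mm10 chromosome 4, 119175457 to 119190011, minus strand) encodes an erythroid adhesion protein of the butyrophilin-like family that carries the Scianna blood group. Its values were 194, 149.7, 104 and 185 normalized read counts in controls 1 to 4 and 191, 192 and 290.0 in Jmjd1c 1 to 3. The first 2 Jmjd1c libraries were within the control range, just below control 1, and the third was above it. Its log2 difference was 0.51 ± 0.21 (95% interval 0.05 to 0.98; limma, adjusted p = 0.216), and 0.31 without Jmjd1c 3.

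Klf1, Epor and Ermap thus shared their highest library, Jmjd1c 3, and their lowest, control 3. Added together, a sum chosen after their values were seen, they came to 254, 227, 135 and 244 in controls 1 to 4 and 263, 295 and 434 in Jmjd1c 1 to 3. As a description over the 7 libraries, Pearson's r of log2(value + 1) was 0.903 between Epor and Ermap, 0.769 between Klf1 and Ermap and 0.695 between Klf1 and Epor. These points share the scaling of each library and take in the difference between groups. For deviations from group means r was 0.88, 0.59 and 0.58. Car1 was also lowest in control 3. Its r of deviations was 0.922 with Ermap, 0.819 with Epor and 0.698 with Klf1, against 0.45, 0.49 and 0.16 with the group difference kept.

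The carbonic anhydrases, enzymes that interconvert carbon dioxide and bicarbonate, were abundant and were not called. Car1 (ENSMUSG00000027556; mm10 chromosome 3, 14766216 to 14808368, minus strand), a marker of erythroid progenitors, was at 1509, 1281, 856 and 1259 normalized read counts in controls 1 to 4 and 981, 991 and 1191 in Jmjd1c 1 to 3. All Jmjd1c libraries lay inside the control range, and the log2 difference was -0.19 ± 0.15 (95% interval -0.53 to 0.14; limma, adjusted p = 0.513). It was -0.08 without control 1 and -0.36 without control 3. Of the 50-base windows in its annotated transcripts 13.4% also occur in the predicted gene Gm5843, so the counting could misplace some of its reads.

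Car2 (ENSMUSG00000027562; mm10 chromosome 3, 14886273 to 14900770, plus strand) was the steadiest of the 10. It was at 13825, 12792, 13499 and 11725 normalized read counts in controls 1 to 4 and at 12867, 13386 and 12279 in Jmjd1c 1 to 3, the narrowest relative range of the 10. The log2 difference was -0.01 ± 0.07, with a 95% interval of -0.17 to 0.14 (limma, adjusted p = 0.947), and its sign turned with the processing. Of 14 other carbonic anhydrase genes 7 were high enough to test and none passed (limma; 0 had an unadjusted p under 0.05), with Car12 at 14.7 ± 5.76 and 21.1 ± 2.48 and Car5b at 28.6 ± 3.92 and 21.8 ± 5.70 in control and Jmjd1c libraries.

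Tfrc (ENSMUSG00000022797; mm10 chromosome 16, 32608920 to 32632794, plus strand), the transferrin receptor that dividing cells and above all erythroid precursors use to take up iron, was at 307, 267, 246 and 261 normalized read counts in controls 1 to 4 and at 200.2, 271 and 267 in Jmjd1c 1 to 3. Jmjd1c 1 lay below every other library and the other two lay within the control range. Its log2 difference was -0.14 ± 0.12 (95% interval -0.41 to 0.12; limma, adjusted p = 0.547), and it was -0.0024 without Jmjd1c 1.

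**Figure D2:**
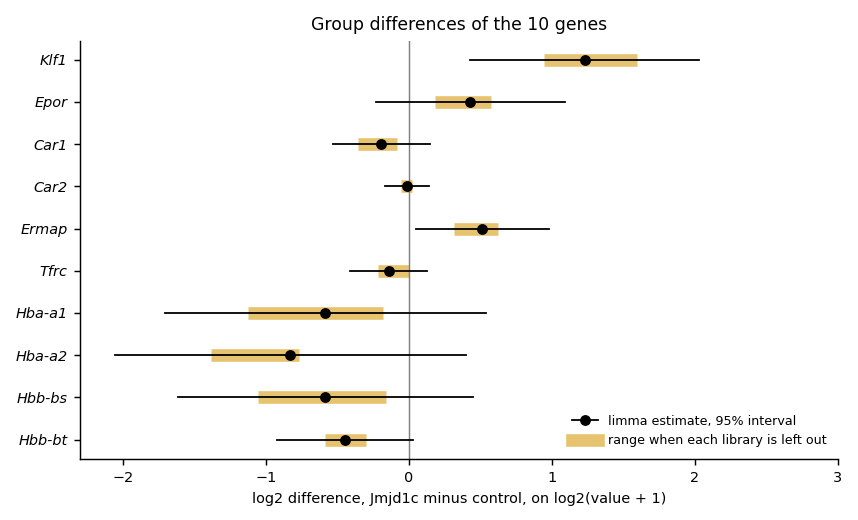
Log2 difference between the Jmjd1c and control libraries on the log2(value + 1) scale (horizontal axis) for each gene (vertical axis), with the limma 95% interval as a thin line and, as a thick bar, the range of the estimate when each library in turn is left out. Intervals of Klf1 (0.43 to 2.03) and Ermap (0.05 to 0.98) lie above 0 before adjustment, those of the other 8 genes span 0, and Hba-a2 has estimates only for the 4 of 7 such fits in which it was high enough to test.

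Levels can be set against each other only per length of exon sequence, and the control means per kilobase fell in a wide order. Car2 led with 5351 ± 384 normalized read counts per kilobase (SD, n = 4), which ranked 31 among 12677 tested genes with an annotated length. Car1 followed with 982 ± 218, at rank 252, so both carbonic anhydrases stood among the most abundant transcripts of these cells. Hbb-bs (129 ± 91.5) and Hbb-bt (128 ± 38.5) came next and did not differ beyond their spread. Hba-a1 (44.8 ± 30.7) and Tfrc (43.7 ± 4.24) did not differ beyond theirs either. Each of Ermap (29.8 ± 7.73), Hba-a2 (23.2 ± 15.9), Klf1 (19.2 ± 8.42) and Epor (13.8 ± 4.47) overlapped its neighbour in that order. The globin genes stand too low in it if reads shared between like globin genes were left out of the counting. Klf1 was higher per kilobase than 33.3% of the tested genes and Epor higher than 25.6%. In the Jmjd1c libraries Klf1 stood at 45.9 ± 19.3 per kilobase (SD, n = 3).

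The 4 adult globin genes lie in 2 clusters, Hba-a1 and Hba-a2 on chromosome 11 and Hbb-bs and Hbb-bt on chromosome 7, and each pair arose by duplication. Their promoters are shown because Hba-a1, Hba-a2 and Hbb-bs shared their highest and lowest libraries, and to set the copies within each pair side by side. The windows are the 250 bases before the RefSeq start on GRCm38.p6, written 5′ to 3′ on the strand of the gene: chr11:32283422-32283671 (plus) for Hba-a1, chr11:32296242-32296491 (plus) for Hba-a2, chr7:103827929-103828178 (minus) for Hbb-bs and chr7:103813924-103814173 (minus) for Hbb-bt. Capitals mark matches on either strand to 4 motifs chosen with these sequences in view: the KLF box CCNCNCCC, the GATA core AGATAA, the box CCAAT and the TATA core TATAA.
Hba-a1: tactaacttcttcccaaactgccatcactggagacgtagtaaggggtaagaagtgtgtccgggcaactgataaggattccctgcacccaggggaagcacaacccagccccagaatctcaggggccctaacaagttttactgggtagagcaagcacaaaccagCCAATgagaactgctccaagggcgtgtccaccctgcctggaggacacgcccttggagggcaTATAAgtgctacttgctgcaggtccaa
Hba-a2: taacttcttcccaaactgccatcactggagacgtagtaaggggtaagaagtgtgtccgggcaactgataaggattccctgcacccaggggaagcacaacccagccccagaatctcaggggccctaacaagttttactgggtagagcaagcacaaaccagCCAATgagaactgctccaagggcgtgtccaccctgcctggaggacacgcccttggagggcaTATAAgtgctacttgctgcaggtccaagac
Hbb-bs: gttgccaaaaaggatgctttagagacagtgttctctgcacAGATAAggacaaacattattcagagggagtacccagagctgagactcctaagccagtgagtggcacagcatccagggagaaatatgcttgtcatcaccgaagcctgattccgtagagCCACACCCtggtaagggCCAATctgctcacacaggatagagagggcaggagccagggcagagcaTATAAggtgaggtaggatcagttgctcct
Hbb-bt: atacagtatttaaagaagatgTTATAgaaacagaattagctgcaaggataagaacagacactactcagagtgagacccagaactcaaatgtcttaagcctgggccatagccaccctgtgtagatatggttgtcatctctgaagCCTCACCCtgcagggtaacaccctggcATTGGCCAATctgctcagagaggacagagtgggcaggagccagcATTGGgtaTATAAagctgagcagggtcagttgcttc

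The Hba-a1 and Hba-a2 windows were 97.6% identical, with 0 mismatches and 6 gap positions. The gaps fall at the window ends, since the same sequence lies a few bases further from the annotated start in one of them. The Hbb-bs and Hbb-bt windows were 69.3% identical. Each beta-globin window held 1 KLF box, CCACACCC in Hbb-bs and CCTCACCC in Hbb-bt, and neither alpha-globin window held one in these letters; 45.9% of the 32851 promoter windows of this length in the reference did. Only Hbb-bs of the 4 held the GATA core as AGATAA, as 9.99% of all windows did. The variant TGATAA and the shorter CACCC were not searched for, and both alpha-globin windows hold each of them. CCAAT (33.9% of windows) and TATAA (22.8%) were in all 4. A match is a description of letters, not a binding site. Of the priming genes with a window, Epor held 4 KLF box matches, some overlapping, and 1 GATA core. Tfrc held 3 and 2 overlapping KLF box matches in its 2 annotated windows. Klf1 and Ermap held neither motif in these letters, though each holds TGATAA on the opposite strand. Each also holds CACCC, Klf1 on its own strand and Ermap on the opposite one.

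The copies within each pair share much of their transcript sequence. Of all 50-base windows in the annotated transcripts of Hba-a1, 72.3% also occur in Hba-a2, and 89.3% of those of Hba-a2 occur in Hba-a1. For Hbb-bs 53.2% of windows are shared with Hbb-bt, and for Hbb-bt 58.3% with Hbb-bs. Neither the read length nor how reads with several equally good places were counted is stated in the sources used here, so the levels of single copies and of alpha against beta chains are uncertain.

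Few reads were counted on the globin genes. The 4 genes together held 0.0046% ± 0.0023 of the reads in genes in control libraries (SD, n = 4) and 0.0028% ± 0.00047 in Jmjd1c libraries (SD, n = 3). By library the share was 0.00205% (exact 95% interval 0.00172 to 0.00243), 0.00407%, 0.00468% and 0.00755% (0.00687 to 0.00827) in controls 1 to 4 and 0.00333%, 0.00259% and 0.00245% (0.00201 to 0.00295) in Jmjd1c 1 to 3. Control 1 was lowest and control 4 highest of all 7, so the control group spanned the Jmjd1c group on both sides. Intervals cover counting error only, since reads without molecular identifiers are not independent molecules. The shares would be too low if reads placed equally well in both copies were left out of the counting. In such bulk samples fewer globin-bearing cells and less globin RNA per cell cannot be told apart.

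Hbb-bs (ENSMUSG00000052305; mm10 chromosome 7, 103826534 to 103828096, minus strand), an adult beta-globin gene, was at 29.6, 95.3, 74.6 and 196 normalized read counts in controls 1 to 4 and at 72.8, 50.5 and 41.1 in Jmjd1c 1 to 3. The Jmjd1c values all lay between control 1 and control 3. The log2 difference was -0.58 ± 0.47 (95% interval -1.62 to 0.45; limma, adjusted p = 0.521), -0.16 without control 4 and -1.05 without control 1. Its size thus moved most with those 2 control libraries.

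Hbb-bt (ENSMUSG00000073940; mm10 chromosome 7, 103812524 to 103813996, minus strand), the other adult beta-globin gene, was at 64.0, 68.8, 117 and 109 normalized read counts in controls 1 to 4 and at 69.5, 59.8 and 61.1 in Jmjd1c 1 to 3. Controls 3 and 4 stood above the rest, which lay within 59.8 to 69.5. The log2 difference was -0.45 ± 0.22 (95% interval -0.92 to 0.03; limma, adjusted p = 0.286), and -0.30 without control 3.

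Hba-a1 (ENSMUSG00000069919; mm10 chromosome 11, 32283511 to 32284465, plus strand), an alpha-globin gene, was at 8.80, 30.2, 37.3 and 69.1 normalized read counts in controls 1 to 4 and at 22.3, 16.5 and 18.8 in Jmjd1c 1 to 3. Its log2 difference of -0.58 ± 0.51 (95% interval -1.71 to 0.54; limma, adjusted p = 0.558) was -0.18 without control 4 and -1.12 without control 1. Hba-a2 (ENSMUSG00000069917; mm10 chromosome 11, 32296489 to 32297298, plus strand) was at 3.20, 16.9, 12.8 and 28.9 in controls 1 to 4 and at 7.45, 6.18 and 5.87 in Jmjd1c 1 to 3. In both genes the Jmjd1c libraries lay above control 1 and below the other 3 controls. Hba-a2 passed the filter on low values only through 3 control libraries, so its log2 difference of -0.83 ± 0.56 (95% interval -2.05 to 0.40; limma, adjusted p = 0.436) is tied to that choice, and it rests on 4 to 33 reads per library.

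The makeup of the globin reads also differed between libraries. Hbb-bs took 31.6% of the adult beta-globin reads in control 1 (exact 95% interval 23.3 to 40.9) and 64.2% in control 4 (58.9 to 69.2), with 58.1% in control 2, 39.0% in control 3 and 51.2%, 45.8% and 40.2% in Jmjd1c 1 to 3. The intervals of controls 1 and 4, the lowest and highest libraries, do not meet. They treat reads as independent molecules, which reads without molecular identifiers are not, so they may be too narrow to judge that gap. Group means were 48.2% ± 15.4 (SD, n = 4) and 45.7% ± 5.47 (SD, n = 3). Alpha chains made up 11.4% of globin reads in control 1, 20.8% to 24.3% in the other controls and between 17.1% and 19.4% in each Jmjd1c library. Hba-a1 took 64.1% to 76.2% of the alpha reads in all 7 libraries. It also has more sequence of its own, 27.7% of its 50-base windows against 10.7% in Hba-a2. Whether its share of reads follows from that was not tested.

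**Figure D3:**
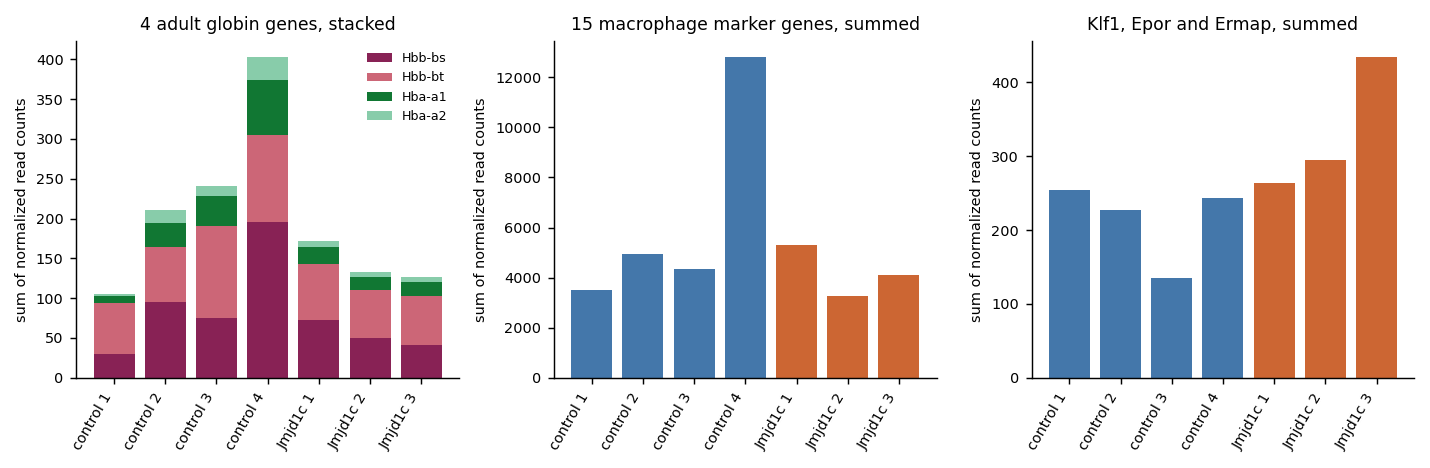
Sums of normalized read counts (vertical axes, from 0) per library (horizontal axes): the 4 adult globin genes stacked on the left, 15 macrophage markers in the middle, and Klf1, Epor and Ermap on the right, with control libraries in blue and Jmjd1c libraries in orange in the last 2 panels. Control 4 is highest in globins (403) and in macrophage markers (12821), while the 3 priming genes are highest in Jmjd1c 3 (434).

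The library with most globin was also the one with most macrophage transcript. Control 4 held 403 normalized read counts of adult globin and 12821 of macrophage markers, whereas controls 1 to 3 had 106 to 241 of globin and 3501 to 4962 of the markers. The Jmjd1c group had 127 to 172 and 3253 to 5320. None of the 15 macrophage markers was at 0 in any library (lowest, Cd5l at 2.06), and 14 of them had a negative log2 difference with a median of -0.40. None passed (limma), and 2 had an unadjusted p under 0.05, as 19.7% of all tested genes did. These differences take in the high values of control 4, and the sums of controls 1 to 3 overlapped those of the Jmjd1c libraries. Vcam1, an adhesion receptor of macrophages and stroma, was 1559 in control 4 and 248 to 532 elsewhere, and C1qb, a complement component of macrophages, 2682 against 572 to 1038; both were chosen after their values were seen. Control 1 was the lowest control in both sums, while control 3 had more globin than control 2 and less macrophage transcript. Jmjd1c 1 was highest of its group in both sums (172 and 5320), while Jmjd1c 3 had less globin than Jmjd1c 2 and more macrophage transcript. The part of macrophages in the globin values was not tested. Without control 4 the control mean of summed globins was 186 ± 71.2 (SD, n = 3) against 144 ± 24.6 in the Jmjd1c libraries (SD, n = 3).

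Other globins were near or at the floor. Hbb-bh1, Hbb-bh2, Hba-x and Hbq1a had 0 reads in all 7 libraries, Hbb-y, an embryonic beta-like chain, had 1 read in each of 2 control libraries, and Hbq1b had 1 read in each of 3 libraries. Slc4a1, the anion exchanger of mature red cells, was at 3.50 to 9.62 normalized read counts in controls and 1.17 to 6.18 in Jmjd1c libraries, below the filter. Alas2, the erythroid enzyme that starts heme synthesis, was at 3.20, 8.45, 20.98 and 27.1 in controls 1 to 4 and at 14.9, 5.15 and 20.0 in Jmjd1c 1 to 3. Control 1 was lowest and control 4 highest in Alas2 as in the summed globins, but Jmjd1c 3 was among the higher libraries in Alas2 and the second lowest in globin.

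**Figure D4:**
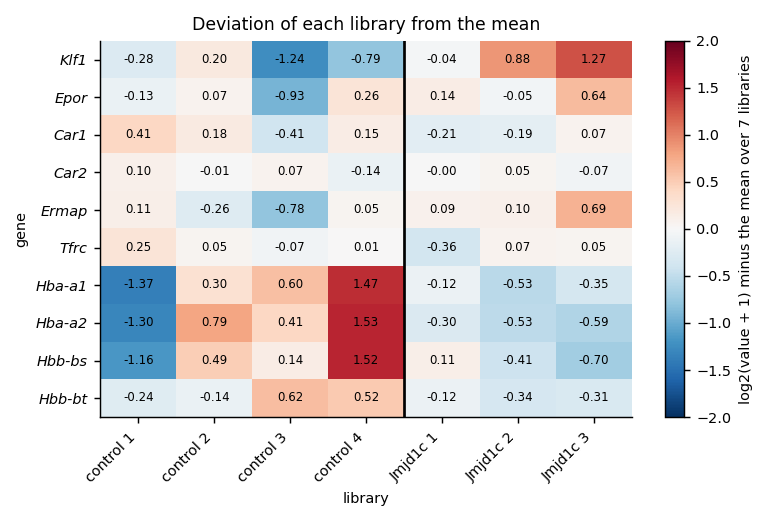
Log2(value + 1) of each gene (rows) in each library (columns) minus the gene's mean over the 7 libraries, as colour and printed value, with a line between the control and Jmjd1c libraries. Klf1, Epor and Ermap share low values in control 3 and high ones in Jmjd1c 3, whereas Hba-a1, Hba-a2 and Hbb-bs run from low in control 1 to high in control 4.

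The highest and lowest libraries of Klf1, Epor and Ermap were thus not those of Hba-a1, Hba-a2 and Hbb-bs. Over the 7 libraries Pearson's r of log2(value + 1) was 0.967 between Hba-a1 and Hba-a2, 0.951 between Hba-a1 and Hbb-bs and 0.686 between Hbb-bs and Hbb-bt, and it was -0.497 between Klf1 and Hba-a1 and -0.863 between Klf1 and Hbb-bt. For Epor it was near 0 with Hba-a1 (-0.077), Hba-a2 (-0.060) and Hbb-bs (0.012). These are descriptions over 7 points that share library depth and take in the difference between groups. For deviations from group means, Klf1 had -0.383 with Hba-a1 and -0.781 with Hbb-bt. Epor then had 0.11 with Hba-a1, 0.20 with Hba-a2 and 0.22 with Hbb-bs. From the lowest to the highest library Hba-a2 varied 9.02-fold, Hba-a1 7.85-fold, Hbb-bs 6.62-fold and Klf1 5.97-fold, against 1.95-fold for Hbb-bt, 1.76-fold for Car1 and 1.53-fold for Tfrc.

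The genes most like the globins and Klf1 across libraries were then sought. Among 9027 tested genes with a mean of at least 50, the 5 closest to the summed adult globins by Pearson's r over the 7 libraries were Ptpn6 (0.987), which encodes the phosphatase SHP-1 that damps cytokine receptors including that for erythropoietin, Rrm2b (0.986), a ribonucleotide reductase subunit, Apbb1ip (0.981), Armc7 (0.975) and Rad17 (0.973). Ptpn6 ran from 2089 in Jmjd1c 3 to 2941 in control 4, a far smaller range than the globins. The 5 closest to Klf1 were Yipf3 (0.994), Prkcsh (0.990), Gse1 (0.990), Txndc15 (0.986) and Yif1b (0.985), of which Prkcsh encodes a subunit of glucosidase II. None of these 10 genes passed the test between groups (limma, adjusted p from 0.0798 to 0.740). The 5 nearest to Klf1 had an unadjusted p under 0.05, and those nearest to the globins did not. All were picked by likeness over the same 7 libraries, so these p-values follow those of Klf1 and the globins and add no evidence. None of the 5 nearest to Klf1 was on a written list.

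A written list of erythroid transcription factors and cofactors was described next. All 18 were tested, 3 rose and 15 did not pass, where 1.8% of all tested genes were called. The median log2 difference was 0.29, and 9 of the 18 had an unadjusted p under 0.05 in limma, against 19.7% of all tested genes. Myb, a regulator of progenitor growth, rose by 0.43 ± 0.08 from 1187 ± 84.0 (SD, n = 4) to 1598 ± 155 (SD, n = 3; limma, adjusted p = 0.0343). Tcf3, which encodes the E proteins that pair with TAL1, rose by 0.83 ± 0.16 (limma, adjusted p = 0.0374), and Foxo3, a factor of the oxidative stress response in stem cells and erythroblasts, by 0.34 ± 0.07 (adjusted p = 0.047). Gata1, the main erythroid regulator, was at 125, 126, 126 and 119.8 in controls 1 to 4 and at 154, 163 and 201 in Jmjd1c 1 to 3. Its groups did not overlap, as in 16.8% of tested genes, and its log2 difference of 0.46 did not pass (limma, adjusted p = 0.0642). Gata2, the forerunner of Gata1 in stem cells, had a log2 difference of 0.54 (limma, adjusted p = 0.0815).

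In the Epo receptor pathway, 20 of 22 genes were tested, 1 rose and 19 did not pass, with a median of -0.06 and 5 at an unadjusted p under 0.05 (limma). Over all tested genes 1.8% were called and 19.7% had such an unadjusted p. The gene that rose was Tfr2, a second transferrin receptor that also binds the Epo receptor, by 0.45 ± 0.09 from 510 ± 39.4 (SD, n = 4) to 698 ± 61.0 (SD, n = 3; limma, adjusted p = 0.0343). Stat5a was at 385, 403, 367 and 359 in controls 1 to 4 and at 431, 557 and 591 in Jmjd1c 1 to 3. Its groups did not overlap, as in 16.8% of tested genes, and its log2 difference of 0.46 did not pass (limma, adjusted p = 0.0514). Stat5b (0.29; limma, adjusted p = 0.256) and the receptor's kinase gene Jak2 (-0.32; adjusted p = 0.344) did not pass either. The calls of Myb, Tcf3, Foxo3 and Tfr2 were each lost without control 2, control 3, Jmjd1c 2 or Jmjd1c 3 (those of Tcf3 and Foxo3 also without control 1, and that of Foxo3 without control 4), and once GC content and length were corrected for, where their log2 differences were 0.42, 0.55, 0.23 and 0.26.

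Lists of later erythroid genes had no called gene, where 1.8% of all tested genes were called and 19.7% had an unadjusted p under 0.05 (limma). None of 15 committed progenitor genes passed (median 0.04; limma, 2 with an unadjusted p under 0.05), with Atp1b2, a sodium pump subunit, at 0.83 (adjusted p = 0.0798) and Trib2, a pseudokinase, at 0.83 (adjusted p = 0.182). None of 17 tested red cell membrane and late genes passed (median 0.21; 7 with an unadjusted p under 0.05), with the mitophagy receptor Bnip3l at -0.21 (limma, adjusted p = 0.119) and the adducin gene Add1 at 0.21 (adjusted p = 0.142). The heme list of 14 (median 0.08; 3 with an unadjusted p under 0.05) and the iron list of 14 (median -0.05; 3 with one) had none past the limma threshold either. Their smallest p-values were those of the heme enzymes Alad (0.26; limma, adjusted p = 0.123) and Fech (0.27; adjusted p = 0.245), of Steap3, which reduces iron in endosomes (0.54; adjusted p = 0.0955), and of the iron chaperone Pcbp1 (0.40; adjusted p = 0.0968). Of 4 butyrophilin family genes only Btnl9 was tested, at 34.7 ± 2.41 and 43.0 ± 12.0 (limma, adjusted p = 0.516).

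**Figure D5:**
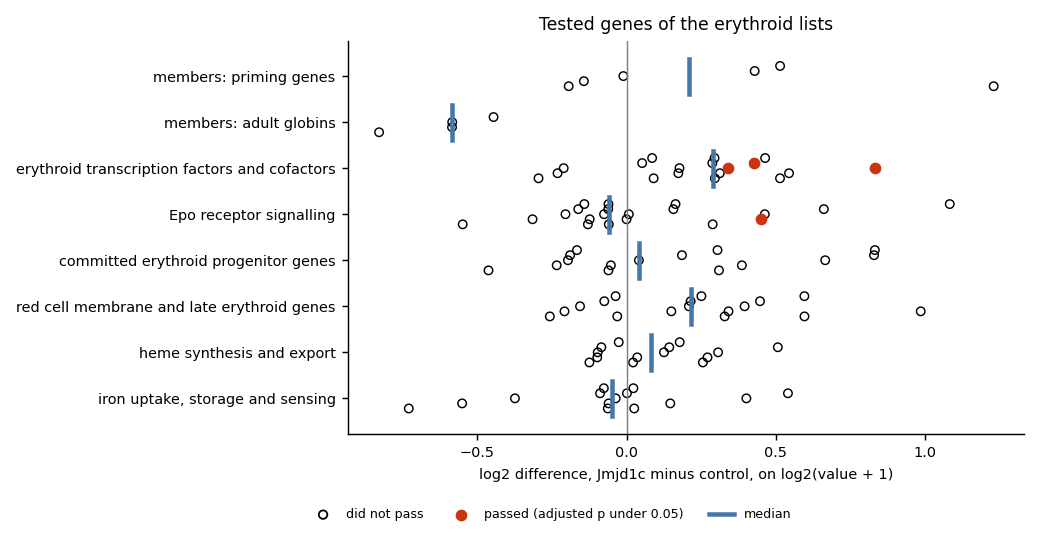
Log2 difference between the Jmjd1c and control libraries (horizontal axis) of each tested gene in 8 groups (vertical axis), with genes past the threshold filled in red and the group's median as a blue bar. The 3 filled genes of the transcription factor list are Foxo3, Myb and Tcf3, the filled gene of the Epo list is Tfr2, and the adult globins lie to the left of 0 without a call.

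Other lists place the 10 genes among the cells of the sort. Over all tested genes 1.8% were called and 19.7% had an unadjusted p under 0.05 (limma). Of 12 tested megakaryocyte genes, which share regulators with the erythroid branch, Itga2b alone was called, rising by 0.59 ± 0.12 (limma, adjusted p = 0.0374; list median 0.25, 3 with an unadjusted p under 0.05), but not once GC content and length were corrected for (0.39). Of 9 tested plasma and B cell markers Igha alone was called, with a log2 difference of -2.29 ± 0.46 (limma, adjusted p = 0.0376; median -1.17, 7 with an unadjusted p under 0.05), but not with that correction (-2.32; adjusted p = 0.0622). Neither Itga2b nor Igha was called without any one of control 1, 2 or 3 or Jmjd1c 2 or 3. None of 10 neutrophil markers passed (median -0.36; limma, 4 with an unadjusted p under 0.05), with the granule peptide gene Camp at -0.69 (adjusted p = 0.0576) and S100a8 at -0.48 (adjusted p = 0.0779).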

How the data were processed

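Bulk RNA-seq of sorted LSK cells was analysed in 4 control and 3 Jmjd1c libraries. The deposited values are a signal per gene for 39179 Ensembl IDs. Tools listed in the submitters' processing notes are Trim Galore 0.2.8, STAR, HTSeq 0.6.1p1 and DESeq 1.18.0, with build mm10; annotation, strand setting and filters: not given in the sources used here. In each column the values above 0 were whole multiples of 1 step, from 0.8 to 1.21 (100% within 0.01 of a read), so read counts were recovered by division. They totalled 4303712 to 6436519 per library, and genes with few reads are imprecise. Symbols matched 37607 IDs.

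Values were tested as log2(value + 1) with limma-trend (limma 3.58.1, R 4.3.3) over the 12813 genes that reached 10 in 3 or more libraries, with Benjamini-Hochberg adjustment over all of them and a threshold of 0.05. Fold changes on this scale understate the change of low genes. Errors beside means are SDs, and those beside log2 differences are limma standard errors. The steps were tested on simulated data. Alternatives were pseudocounts of 0.5 and 10, no filter and a filter of 50, TMM and quantile scaling, limma without the trend, edgeR 4.0.16 and DESeq2 1.42.0 on the recovered counts, the replicate number as a block, a correction for GC content and length, and leaving out each library.

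The 10 genes, 14 lists of other genes and the alternatives were chosen with earlier results of these data known. Genes named are the 10 genes; Jmjd1c; up to 4 called genes per list, or the 2 with the smallest p; the other globins; fixed regulators and markers; and the 5 genes most correlated with the globins and with Klf1. Any other gene is marked as picked after seeing its values. One of the fixed markers is not reported here. Gene positions, exon lengths and GC content come from GENCODE M21 on GRCm38, the assembly mm10 names, and promoter windows from RefSeq on GRCm38.p6.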

Additional observations from a re-analysis of the deposited data

Results flagged for a closer look

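In 3 of 67 values checked, control 4 stood apart from the other controls, its gap to the nearest of them as a share of the control range, exceeding the 95% critical value of Dixon; chance alone marks about 5% of such groups. Its 15 macrophage markers summed to 12821 normalized read counts against 3501 to 4962 (gap 0.843 of the range). Hmox1, the heme-degrading enzyme of macrophages that clear red cells, was 763 against 233 to 287 (0.898). The 14 genes of iron uptake, storage and sensing summed to 25679 against 19208 to 19679 (0.927), with ferritin heavy chain Fth1 at 13731 against 10613 to 10957, a gene chosen after its values were seen.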

How the results depend on the processing

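None of the 10 genes, where tested, was called in limma with the other pseudocounts, filters, scalings, correction or block; Klf1, Epor, Hba-a1 and Hba-a2 could not be tested with the filter of 50. Of the 10, 1, Klf1, was called by DESeq2 and without Jmjd1c 1 (range without each library 0 to 1). The count of all called genes, 231, was 0 without the intensity trend (2213 at an unadjusted p under 0.05), 590 in DESeq2 and 29 once GC content and length were corrected for. It was 72 without control 1, 3 without control 2, control 3 or Jmjd1c 2, 211 without control 4, 631 without Jmjd1c 1 and 9 without Jmjd1c 3. The genes called in the other lists, 6, were 0 without the trend, 15 in DESeq2, 0 after the correction and 0 to 14 without each library. Jmjd1c kept -0.89 without the trend but was not called (adjusted p = 0.117). The replicate numbers did not pair the libraries (correlations of same-numbered deviations -0.15, -0.0021 and 0.017, and no library correlated best with its own number); with the replicate number as a block, 14 genes and 2 listed genes were called, and with that block and the correction 33 and 2. Signs turned for some genes. The log2 difference of Alas2, reported as 0.02, was -0.036 with a pseudocount of 10, -0.17 in edgeR and DESeq2, -0.00703 after the correction and -0.50 to 0.54 without each library. The log2 difference of Car2 was 0.079 after quantile normalization, 0.022 after the correction and -0.058 to 0.021 without each library. The log2 difference of Ly6a was 0.049 and the log2 difference of Rad17 0.069 after the correction, and 0.11 and 0.12 with the block as well. Hba-a2 could be tested in 15 of 19 alternatives and had no adjusted p in DESeq2. Depth limits Klf1, Epor and the globins, which have few reads per library.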
